A study of Mus musculus with 2 samples.

Results

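The cells described here are Th1-like cells by a transcript gate. They were chosen by measured values: at least 3 UMIs (unique molecular identifiers, each standing for 1 captured transcript) of Ifng, Tbx21 and Nkg7 together. The same gate asked for at most 1 UMI of the terminal effector genes Cx3cr1, S1pr5 and Klrg1 together, none of Trdc, Cd8a or Cd8b1, and at least 1 UMI of Cd3d, Cd3e or Cd3g. It found 483 members among 7396 barcodes, 472 in the control library and 11 in the Id2-deficient library. Most of what follows therefore describes the 472 control members against 2768 control reference cells, which passed the same other gates and had 0 UMIs of Ifng, Tbx21 and Nkg7. Ifng, Tbx21 and Nkg7 differ between these groups by construction, and no test was run on any difference.

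The study profiled CD4+ YFP+ cells of mice with an autoimmune encephalomyelitis (EAE) that serves as a multiple sclerosis model, induced by immunization with the myelin peptide MOG in complete Freund's adjuvant (CFA) and sampled at peak disease. Control mice were Il17Cre/R26YFP, and Id2-deficient mice were Il17Cre/Id2f/f/R26YFP, so all mice carried Cre under Il17 and the YFP reporter, and the deletion of Id2 was limited to cells that had expressed the Cre. YFP marks a history of Il17 expression, not its present expression. Titles name draining lymph node (DLN), the source fields name spleen and lymph node, and the protocol names spleen, so the organ of these cells is uncertain. There was 1 library per genotype, with the number of pooled mice not given in the sources used here. No difference between the libraries has a replicate check, and every 95% interval below covers counting error only.

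Th1 cells are helper T cells that make interferon gamma (Ifng) under the transcription factor T-bet (Tbx21), which interleukin 12 and interleukin 18 signals reinforce. Nkg7 encodes a membrane protein of cytotoxic granules that is found in Th1, CD8 T and natural killer (NK) cells. In encephalomyelitis, Th17 cells, defined by interleukin 17, are known to give rise to descendants that make interferon gamma and no longer interleukin 17. Id2 encodes an inhibitor that binds E proteins and keeps them from their DNA sites, called E-boxes.

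The promoters of the gate genes are shown because the study removed Id2, whose partners bind the E-box CANNTG (read the same on both strands), and because T-bet, a T-box factor, is the product of a gate gene. Each line gives the 250 bases before the RefSeq start of the gene, 5′ to 3′ on the gene's strand, on build GRCm38.p6. Capitals mark CANNTG and GGTGTGA, a T-box core searched on both strands (as TCACACC on the other strand). The windows are chr10:118440796-118441045 (plus strand) for Ifng, chr7:43436888-43437137 (plus strand) for Nkg7 and chr11:97115332-97115581 (minus strand) for Tbx21.
Ifng: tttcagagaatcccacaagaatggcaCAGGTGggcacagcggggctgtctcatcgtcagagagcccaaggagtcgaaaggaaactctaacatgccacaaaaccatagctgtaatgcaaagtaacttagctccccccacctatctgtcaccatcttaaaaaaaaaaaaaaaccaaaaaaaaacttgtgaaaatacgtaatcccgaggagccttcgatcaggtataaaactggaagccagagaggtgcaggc
Nkg7: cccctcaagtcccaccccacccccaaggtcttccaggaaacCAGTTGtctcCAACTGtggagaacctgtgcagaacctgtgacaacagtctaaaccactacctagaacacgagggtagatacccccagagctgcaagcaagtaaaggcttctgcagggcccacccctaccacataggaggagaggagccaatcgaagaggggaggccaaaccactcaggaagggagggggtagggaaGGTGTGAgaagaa
Tbx21: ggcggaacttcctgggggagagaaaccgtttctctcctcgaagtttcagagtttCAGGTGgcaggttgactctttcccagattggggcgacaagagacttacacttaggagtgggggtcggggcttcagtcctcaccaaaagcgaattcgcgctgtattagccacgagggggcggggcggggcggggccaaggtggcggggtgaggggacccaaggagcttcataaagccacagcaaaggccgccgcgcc
Ifng and Tbx21 each held 1 E-box, in both cases CAGGTG, beginning 224 and 196 bases before the start. Nkg7 held 2, CAGTTG and CAACTG, beginning 209 and 199 bases before it, and 1 GGTGTGA in its last bases. The GENCODE start of Nkg7, given below, lies upstream of the RefSeq start, so the last bases of that window, GGTGTGA included, are inside the gene as GENCODE places it. An E-box occurs in 66.2% of the 32851 promoter windows of this length, and GGTGTGA or its reverse complement in 3.33%. These are matches of letters, not measured binding.

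Nkg7 (ENSMUSG00000004612, chromosome 7, 43437073 to 43438249, GRCm38) carried most of the gate. Of the control members 448 (94.9%) held an Nkg7 UMI, with a median of 5 and a maximum of 26, and Nkg7 gave 2686 UMIs, 78.0% of all gate UMIs. Ifng (ENSMUSG00000055170, chromosome 10, 118441046 to 118445892) gave 605 UMIs in 199 members (42.2%), at most 53 in 1 cell. Tbx21 (ENSMUSG00000001444, chromosome 11, 97098071 to 97115331) gave 151 UMIs in 114 members (24.2%), at most 3 in 1 cell. Thus 175 members (37.1%) held both Ifng and Nkg7 UMIs, 273 (57.8%) held Nkg7 and no Ifng UMI, and 24 (5.08%) held Ifng and no Nkg7 UMI, while 43 held all 3 genes. The name Th1-like thus rests largely on Nkg7 for most cells, although a member without an Ifng UMI need not lack the transcript.

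**Figure D1:**
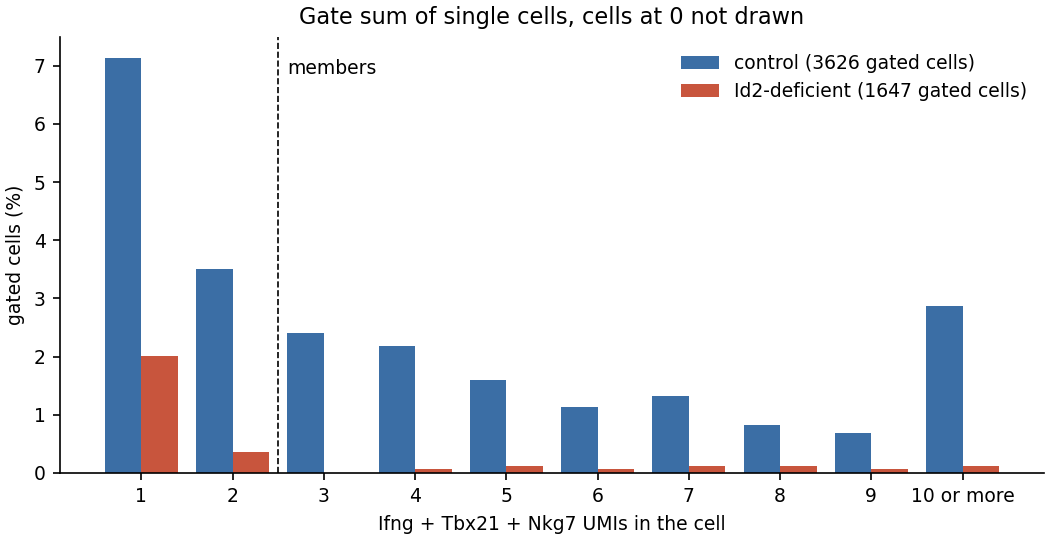
Share of gated cells (percent, vertical axis) with each sum of Ifng, Tbx21 and Nkg7 UMIs (horizontal axis) in the control and Id2-deficient libraries, with the dashed line at the threshold for members. In the control library 127 cells sit just outside the line at a sum of 2 and 87 just inside at 3, with no dip between them.

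The gate sum of the control members ranged from 3 to 68, with a median of 6. There was no gap at the threshold, as the plot of gate sums shows: 87 members had a sum of 3 and 127 cells a sum of 2. Of the 687 control cells past the sum before the other gates, 154 failed on Cx3cr1, S1pr5 and Klrg1, 44 on Cd8a and Cd8b1, 33 on Trdc and 6 on the Cd3 genes, which removed 215 in all. A single UMI of the terminal effector genes was still present in 53 members (11.2%). Neighbouring terminal effector cells were thus removed by the gate, and whether a break in those 3 genes sets them apart was not examined.

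Markers of αβ T cells were read in the 472 control members, although the gate itself asked for a Cd3 UMI and no Trdc UMI. A Trac, Trbc1 or Trbc2 UMI was present in 471 of them, and a Cd4 UMI in 341 (72.2%), against 63.0% of reference cells. The αβ T cell list summed to 6582 CPM in members and 7439 CPM in the reference (CPM is UMIs per 1000000 UMIs of the same cells). That list includes the Cd3 genes, which the gate required in both groups, so its sums are partly set by the gate. Of 10 NK cell markers, Ncr1, Klra4, Klra7, Klra8 and Eomes were at 0 in the members, and the list summed to 106 CPM in members and 105 CPM in the reference. An Il17a or Il17f UMI was present in 18 members (3.81%) and in 154 reference cells (5.56%), although the labels call all these cells TH17 and the sort asked for a history of Il17.

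The control library held 33646845 UMIs in 4937 barcodes and the Id2-deficient library 14668624 in 2459, and the median control member had 5826 UMIs and the median reference cell 5273.5. The libraries shared 3 barcodes, none of them a member. Control members held 3824883 UMIs in all and the control reference 17344157, so UMI counts set side by side below are not levels before scaling. Markers of other cells were unevenly spread. B cell markers summed to 213 CPM in members and 2263 CPM in the reference, of which 1 reference cell held 23801 UMIs, and to 892 CPM without that cell. Neutrophil markers summed to 3966 CPM in members and 1693 CPM in the reference, but 15066 of the members' 15171 UMIs came from 1 member, and without it the members stood at 27.7 CPM. Red cell markers were at 16.2 and 12.9 CPM, plasma cell markers at 76.1 and 154 CPM. The monocyte list summed to 869 CPM against 509 CPM, with Csf1r and Ms4a7 at 0 in the members, and it contains Ccr2 and Ly6c2, which T cells also express. The dendritic cell list was at 427 and 377 CPM, with Clec9a and Xcr1 at 0 in the members. The γδ T cell list was at 40.0 and 80.6 CPM, the list for NKT and MAIT cells at 15.7 and 20.9 CPM, and the innate lymphoid list at 875 and 918 CPM. The basophil and mast cell list had 1 UMI in the members. Without cells that held 3 or more UMIs of B cell, monocyte, neutrophil, red cell or basophil markers (Ccr2, Ly6c2 and Cst3 left out), the members were 13.7% of gated control cells. Leaving out the same cells moved 7 of the 47 named genes past 2-fold by over 1.5 times, and their values without those cells stand beside them below.

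Outside the gate genes, the members stood apart from the reference at a limited set of genes. Of 8855 genes with at least 100 UMIs over both groups, 189 (2.13%) were at least 2-fold higher in the members and 248 (2.8%) at least 2-fold lower. The median log2 ratio over all of them was −0.04, and the 5th and 95th percentiles were −0.76 and 0.63. The counts depended on the cells used. Without the cells with markers of other types they were 150 and 224, with a Cd4 UMI required 109 and 155, with the reference reweighted to the members' depth 115 and 214, and without cells that held a Mki67 or Top2a UMI 108 and 297.

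**Figure D2:**
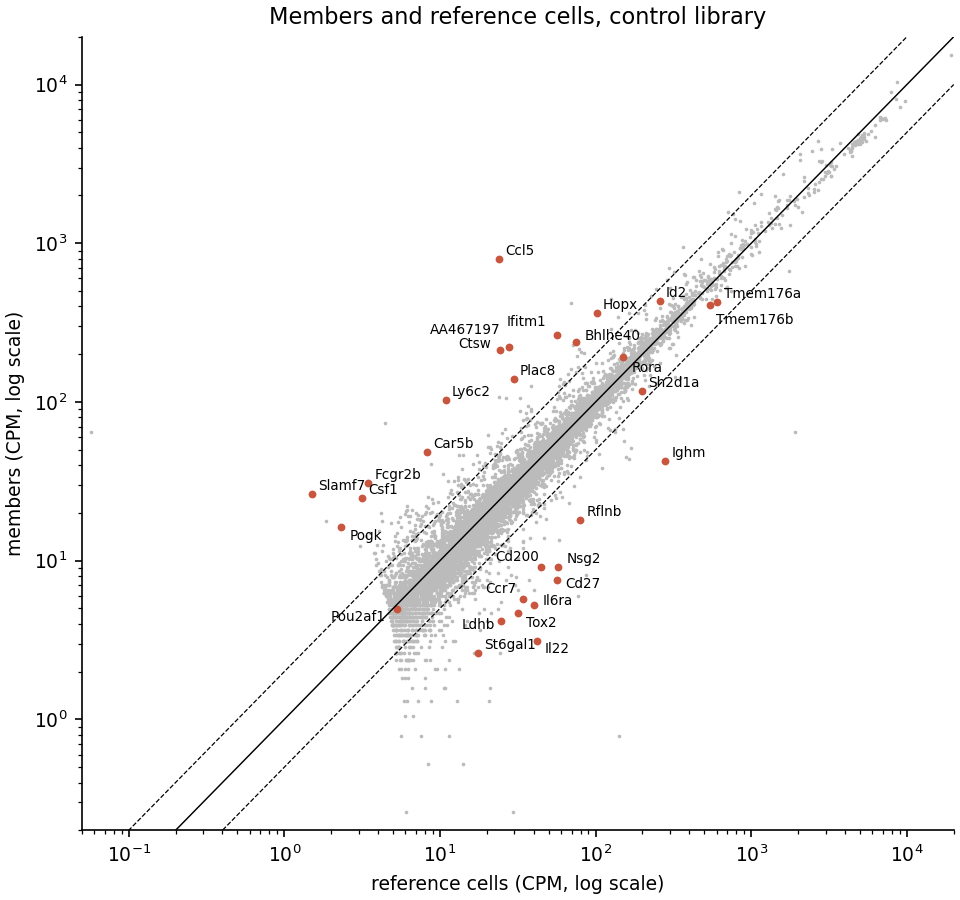
Level of each measured gene in the control reference cells (horizontal axis, CPM, log scale) and in the control members (vertical axis, CPM, log scale), with a solid line at equal levels and dashed lines at 2-fold. Ccl5, at 796 CPM against 24.0 CPM, lies farthest above the lines among the labelled genes, and Il22, at 3.14 CPM against 41.9 CPM, is among those farthest below.

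Ranked by the lower bound of the ratio, the chemokine gene Ccl5 stood first. Ccl5 (ENSMUSG00000035042, chromosome 11, 83525778 to 83530518), which attracts effector T cells and monocytes, gave 3044 UMIs in the members (796 CPM) and 416 in the reference (24.0 CPM), a log2 ratio of 5.05 (95% interval 4.90 to 5.20). Ccl5 was concentrated: 165 members (35.0%) held any UMI, up to 145 in 1 cell, and 1 reference cell held 29.8% of the reference UMIs. Without the cells with markers of other types the log2 ratio of Ccl5 was 5.89, and with cells of gate sum 1 and 2 added to the reference it was 3.92. Slamf7, a receptor of cytotoxic lymphocytes, was at 26.4 CPM against 1.499 CPM and Csf1, a macrophage growth factor, at 24.8 against 3.17. Ctsw, a protease of cytotoxic cells (chromosome 19, 5465043 to 5468507), was at 211 CPM against 24.2 CPM, a log2 ratio of 3.13 (2.95 to 3.30), and was seen in 66.7% of members and 9.10% of reference cells. Among the 12 highest were also Ly6c2, a surface antigen (log2 ratio 3.24), AA467197 (3.01), Fcgr2b, an inhibitory Fc receptor (3.16), Car5b, a mitochondrial carbonic anhydrase (2.54), Pogk (2.81), Ifitm1, an interferon-induced membrane protein (2.24), and Plac8 (2.22). Without the cells with markers of other types, Slamf7 was at 5.65, Ly6c2 at 5.17 and Plac8 at 3.25.

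The 12 lowest genes came from several programs. Sostdc1 had 0 UMIs in the members and 156 in the reference, which makes it at least 11.5-fold lower with a floor of 3 counts over the group. Cd27, a costimulatory receptor of less differentiated T cells, was at 7.58 CPM against 56.2 CPM, and Ccr7, which guides cells into lymph nodes, at 5.75 against 34.2. Il6ra, a receptor chain for interleukin 6, was at 5.23 CPM against 40.2 CPM. Tox2 and Cd200, both of the follicular helper program, were at 4.71 against 31.6 CPM and 9.15 against 44.5 CPM. St6gal1, Ldhb, Nsg2 and Rflnb had log2 ratios of −2.75, −2.56, −2.65 and −2.14. A pair of these 12 rested on single cells: for Il22 420 of 726 reference UMIs lay in 1 cell, and its log2 ratio of −3.74 became −2.50 without that cell, and for Ighm, an immunoglobulin gene, −2.72 became −1.23. Without the cells with markers of other types they were at −2.44 and −1.07, and with a Cd4 UMI required Ighm was at −0.96.

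Of 18 measured Th1 regulators and receptors, 5 were at least 2-fold higher and 1 was lower by that much, and the list's median log2 ratio was 0.25. The markers given for this cell type that the gate did not use were both higher. Hopx (chromosome 5, 77086988 to 77115121), a factor that sustains Th1 cells, was at 365 CPM against 101 CPM, a log2 ratio of 1.85 (1.75 to 1.95), and Bhlhe40 (chromosome 6, 108660629 to 108666925), a factor needed for pathogenic cytokine production, at 239 against 75.1 CPM, a log2 ratio of 1.67 (1.55 to 1.79). At 2000 UMIs per cell, Hopx was seen in 53.5% of members and 17.8% of reference cells, and in 2.63% of the 38 B cells of the library, which should lack it. Bhlhe40 was seen in 37.8%, 11.2% and 7.89%.

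Receptors of the cytokines that drive Th1 cells were uneven. Il18rap, the accessory chain of the interleukin 18 receptor, was at 108 CPM against 24.0 CPM, while Il18r1, its partner chain, was at 393 against 321 CPM. Il12rb2, the inducible chain of the interleukin 12 receptor, had too few UMIs to be measured, 52 against 22, and was seen in 9.75% of members and 0.723% of reference cells. It is named although its values had been seen. Il12rb1 and Stat4, the chain and the factor that pass on the same signal, had log2 ratios of −0.16 (−0.61 to 0.27) and 0.20 (0.05 to 0.35). The chains of the interferon gamma receptor differed in opposite directions: Ifngr1 was at 663 CPM against 321 CPM and Ifngr2, which signals, at 8.37 against 20.6 CPM. Cxcr3, which follows interferon-induced chemokines, was at 129 against 61.9 CPM. Runx3, a partner of T-bet, had a log2 ratio of 0.32 (0.16 to 0.48), Prdm1 0.63 (0.18 to 1.05) and Zeb2 0.81 (0.38 to 1.21), and Irf1 and Il27ra were below 0 at −0.17 and −0.24.

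Effector cytokines and ligands were split, as 2 of 14 were above the reference by 2-fold or more and 2 below it, around a median of −0.07 (log2). Fasl, which kills cells that bear Fas, was at 20.9 CPM against 6.63 CPM, and Csf2, which encodes GM-CSF, a cytokine required for encephalomyelitis, at 13.6 against 6.11 CPM, a log2 ratio of 1.15 (0.65 to 1.65). Csf2 was seen in 37 members (7.84%) and 92 reference cells (3.32%). Tnf, also produced by Th1 cells, was at 34.5 against 30.7 CPM, a log2 ratio of 0.17 (−0.12 to 0.44). Tnfsf8 was at 51.0 against 169 CPM and Il4, the Th2 and follicular helper cytokine, at 1.57 against 10.7 CPM (6 UMIs against 185). Ltb, the most abundant of the list, had a log2 ratio of −0.22. Of the chemokines 2 of 8 were measured: beside Ccl5 there was Ccl1, for which 236 of 248 UMIs lay in 1 member (log2 ratio 10.14, and 5.74 without the cells with markers of other types), so that no level of the group can be read from it. The chemokine genes Ccl3, Ccl4 and Xcl1, which accompany Ccl5 in cytotoxic cells, had 1, 2 and 0 UMIs in the members.

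Cytotoxic granule and NK receptor genes were mostly past 2-fold: 9 of 15 measured genes were higher, none was lower, and their median log2 ratio was 1.15. Beside Ctsw and Slamf7, the lysosomal protease gene Ctsd was at 215 CPM against 78.6 CPM and the granzyme inhibitor genes Serpinb6b and Serpinb9 at 40.5 against 8.71 and 25.4 against 8.36 CPM. The NK receptor genes Klrd1 and Klrc1, whose products pair as an inhibitory receptor, were at 106 against 26.4 and 46.3 against 13.2 CPM. Cd226, an activating adhesion receptor, had a log2 ratio of 1.02 and Gzmb, granzyme B, one of 1.15 (0.64 to 1.65). Yet the killing genes were sparse. Gzmb was seen in 24 members (5.08%), Prf1, which encodes the pore-forming perforin, in 8, Gzma in 5 and Gzmk in 6. Srgn, the proteoglycan that packs granules, was abundant in both groups, at 971 and 901 CPM. Cd160 was the lowest of the list, with a log2 ratio of −0.69 and 10 of its 30 member UMIs in 1 cell. Without the cycling cells, 7 of 13 measured genes of the list were higher and 3 lower.

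Among homing receptors and integrins, 2 of 22 lay above the reference by 2-fold or more and 5 below it, and the median (log2) was 0.14. Among the higher was Cxcr6 (chromosome 9, 123806475 to 123811760), a receptor of tissue-resident and effector T cells, at 584 CPM against 288 CPM, a log2 ratio of 1.02 (0.94 to 1.09). At 2000 UMIs per cell, Cxcr6 was seen in 68.4% of members, 35.2% of reference cells and 0 of the 38 B cells, which allows a share of up to 9.25%. Ccr2, through which T cells enter inflamed tissue, was at 381 against 204 CPM, a log2 ratio of 0.90 (0.82 to 0.99), and the integrin genes Itgb1 and Itgb2 had ratios of 0.63 and 0.70. Among the lower were Cxcr5, at 1.31 against 20.5 CPM, Ccr7, and the Th17 and Th2 receptors Ccr6 and Ccr4, at 43.4 against 165 and 13.9 against 37.9 CPM. The egress genes Klf2 and S1pr1 differed little, with log2 ratios of 0.23 and 0.00 (−0.11 to 0.11). Ccr7, a lymph node entry gene, was thus low in the members while these egress genes were not.

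The Th17 program was lower in part. Of 21 measured genes, 9 were at least 2-fold lower and none higher, with a median log2 ratio of −0.72. Il23r, the receptor that maintains Th17 cells, was at 6.27 CPM against 15.3 CPM, a log2 ratio of −1.29 (−1.96 to −0.68), and Ccr6 had a ratio of −1.93. Il17a had 14 UMIs against 133 (3.66 and 7.67 CPM), Il17f 21 against 426 (5.49 and 24.6 CPM) and Il21 15 against 250 before scaling. The 2 receptor genes for interleukin 6, Il6ra and Il6st, were at −2.94 and −2.65. Other genes of the list remained high in the members: Rora, another factor of Th17 cells, was at 192 against 150 CPM, Hif1a at 258 against 242 CPM, and Tmem176a and Tmem176b, abundant in Th17 cells, at 428 against 605 and 406 against 542 CPM. Rora, Ltb4r1 and Hif1a were the 3 measured genes of the list above a log2 ratio of 0.

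The follicular helper program was the lowest of the lists. Of 15 measured genes 12 were at least 2-fold lower and none higher, with a median log2 ratio of −1.82. The 2 members of the list with the largest differences were Cxcr5, which leads cells into B cell follicles, and Izumo1r. Cxcr5 had 5 UMIs against 356 (1.31 and 20.5 CPM) and Izumo1r 31 against 1506 before scaling. Bcl6, the defining factor, was at 5.49 against 13.03 CPM, a log2 ratio of −1.25 (−1.97 to −0.60), Pdcd1, the receptor PD-1, at 13.9 against 46.6 CPM, and Slamf6, which marks stem-like cells too, at 44.7 against 158 CPM. Sh2d1a, the adaptor of the Slam receptors, was less far apart at 117 against 198 CPM, and Pou2af1 was at 4.97 against 5.30 CPM. Of 14 naive and central memory genes 3 were lower, among them Ccr7 and Tcf7, a factor of stem-like cells, at 144 against 325 CPM, a log2 ratio of −1.18 (−1.31 to −1.05), whereas Lef1 (−0.11), Satb1 (0.04) and Il7r (−0.13) differed by less than 0.2.

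Regulatory and inhibitory genes were uneven. Of 9 measured Treg and Tr1 genes 2 were lower and none higher, Ikzf2 at 6.54 against 31.7 CPM and Nt5e at 25.9 against 54.8 CPM, and Foxp3 had 9 UMIs in 5 members. Il2ra and Tnfrsf18, which activated cells share with Treg cells, had log2 ratios of 0.36 and 0.27, and Tnfrsf4 −0.39. Of 7 measured inhibitory receptor genes 3 were lower, Pdcd1, Btla and the factor gene Tox at 7.06 against 30.5 CPM. Ctla4 was at 22.5 against 42.4 CPM, Lag3 at 9.15 against 8.99 and Tigit at 5.49 against 4.79. Havcr2, known as a Th1 receptor, stayed under 100 UMIs. It had 34 of the members' 3824883 UMIs and 52 of the reference's 17344157, so its share of UMIs was higher in the members.

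Id and E protein genes included the target of the deletion. Id2 (ENSMUSG00000020644, chromosome 12, 25093799 to 25097140) was at 430 CPM in control members and 258 CPM in control reference cells, 1.67-fold higher (1.58 to 1.77), with a UMI in 87.3% and 54.9% of cells. Id3, its relative, went the opposite way, at 13.6 against 58.3 CPM, a log2 ratio of −2.10 (−2.53 to −1.70). Of the E protein genes, Tcf3 had a log2 ratio of 0.57 (0.28 to 0.86), Tcf12 −0.02 (−0.31 to 0.27) and Tcf4 0.43 (−0.30 to 1.10). Of the 5 measured genes none was 2-fold higher and Id3 was lower.

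All 17 measured S100, galectin and annexin genes, which are high in effector and memory cells, were above a log2 ratio of 0, with a median of 0.69, and 3 were past 2-fold. These were Lgals3, at 518 CPM against 244 CPM, Anxa2, at 365 against 163 CPM, and Anxa1, at 193 against 75.8 CPM. However, 1 member held 216 of the 740 Anxa1 UMIs of the members, and without it Anxa1 was at a log2 ratio of 0.87. Crip1 and S100a6 were the most abundant, at 4403 against 2698 CPM and 3933 against 2803 CPM. With the reference reweighted to the members' depth, 1 of the 17 remained past 2-fold and the median was 0.66.

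Interferon response genes differed in both directions, as 4 of 22 lay above the reference by 2-fold or more, 6 below it, and the median (log2) was −0.23. Ifitm1, Ifitm2 and Ifitm3 were at 265 against 56.1, 287 against 126 and 345 against 140 CPM. Ifitm1 was seen in 119 members (25.2%) and 1 member held 9.96% of its UMIs. Ly6c2 and Ly6c1, near-identical neighbours between which reads can be split, differed in opposite directions, with log2 ratios of 3.24 and −2.16. Beside Ly6c1 the 6 lower genes were Ifit1, Ifit3 and Iigp1, with ratios of −1.47, −1.31 and −1.58, Ifi27l2a, at 669 against 1754 CPM, and the signalling inhibitor gene Socs3, at −1.24. Irf7, a factor that interferon induces, went the opposite way at 0.73. Igtp and Gbp2, targets of interferon gamma, were at 0.11 (−0.04 to 0.26) and −0.25 (−0.55 to 0.04).

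Genes of recent receptor signalling were not higher. Of 15 measured genes 3 were at least 2-fold lower and none higher, with a median log2 ratio of −0.42. Nr4a1, a reporter of antigen receptor signals, was at 2.35 against 8.19 CPM (9 UMIs against 142). Egr2 had 12 UMIs against 115 and Fosb 30 against 302, counts not scaled to the larger UMI total of the reference. Dusp2 was the only measured gene of the list above 0, at 91.8 against 77.3 CPM. Among common gamma chain and related receptors, Cd27 was the 1 gene of 12 past 2-fold, and Il2rb, the chain for interleukin 2 and interleukin 15, came closest on the other side at 109 against 58.3 CPM, while Il2rg was at 326 against 257 CPM.

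Metabolic genes differed little. Of 17 glycolysis genes 1 was at least 2-fold higher, the glucose transporter gene Slc2a3 at 33.7 against 13.1 CPM, and none lower, with a median log2 ratio of 0.19. Gapdh and Ldha had ratios of 0.15 and 0.22, and Pdk1, a mitochondrial kinase that inhibits pyruvate dehydrogenase, was the lowest at −0.65 (−1.08 to −0.26). None of 20 oxidative phosphorylation genes passed 2-fold in either direction, with a median of 0.09 and a range from −0.54 for Ndufa4 to 0.41 for Cox5a. In the survival list 2 of 13 were higher, Pmaip1 and Bbc3, and 2 lower, Fas and Bcl2l11, all 4 being pro-death genes, and the median was −0.08. Bcl2l11, known as Bim, was at 4.18 against 20.01 CPM and Pmaip1, known as Noxa, at 32.7 against 15.1 CPM.

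Cell cycle genes were higher as summed, but less so at matched depth. All 18 were above 0, 6 were past 2-fold and the median log2 ratio was 0.90, with Cdk1 at 63.8 against 25.1 CPM. With the reference reweighted to the members' depth none passed 2-fold, the median was 0.21 and Cdk1 stood at 0.58. A Mki67 or Top2a UMI was present in 136 members (28.8%) and 564 reference cells (20.4%). At 2000 UMIs per cell Mki67 was seen in 9.13% of members (6.69% to 12.1%) and 5.51% of reference cells (4.68% to 6.43%).

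**Figure D3:**
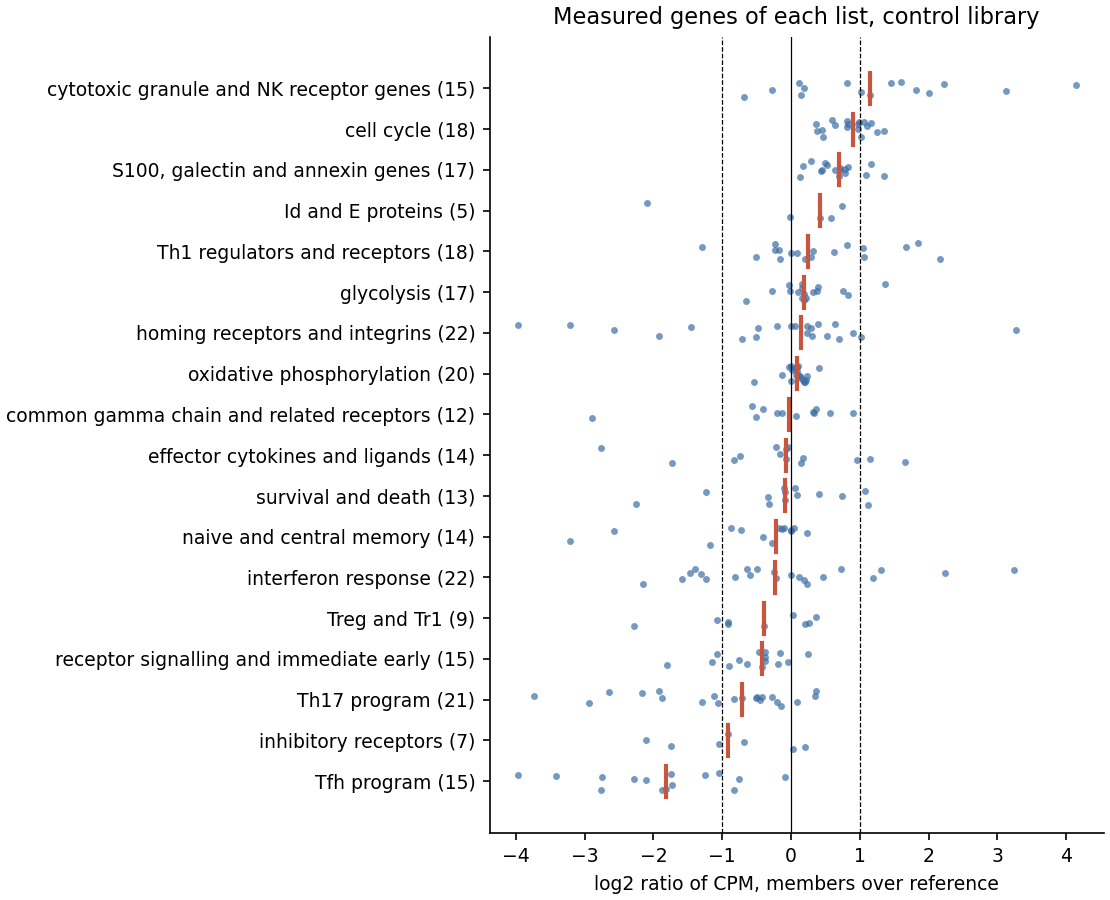
Log2 ratio of CPM, members over reference (horizontal axis), for each measured gene (point) of each gene list (row, with its number of measured genes), with the list median as a red bar and dashed lines at 2-fold. Among the 18 lists drawn (chemokines, with 2 measured genes, are left out) the cytotoxic list has the highest median, 1.15, and the follicular helper list the lowest, −1.82, against −0.04 over all measured genes.

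Levels of genes that the gate did not use were followed across the threshold in the control library, in cells with a gate sum of 0, 1, 2, 3 to 5 and 6 or more (2768, 259, 127, 224 and 248 cells). Id2 stood at 258, 422, 480, 442 and 422 CPM, so that its level was already higher at a single gate UMI, with no further increase. Cxcr6 gave 288, 490, 558, 543 and 613 CPM and Bhlhe40 75.1, 168, 202, 248 and 233 CPM, so both were higher at 1 gate UMI and higher again above it.

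Hopx was higher at each step, at 101, 207, 266, 308 and 407 CPM, as did Ctsw, at 24.2, 105, 130, 186 and 229 CPM. Ccl5 was highest at the top, at 24.0, 166, 359, 383 and 1094 CPM. Slamf6 was at its lowest from a sum of 2 on, at 158, 75.9, 41.5, 46.1 and 43.7 CPM, and Tcf7 gave 325, 191, 145, 172 and 123 CPM.

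Ccr6 stood at 165, 63.1, 53.5, 57.9 and 32.9 CPM and Klrd1, the NK receptor gene, at 26.4, 63.1, 68.8, 106 and 106 CPM. Cells with a sum of 1 or 2, which are not members, were therefore nearer to the members than to the reference for Id2, Cxcr6, Slamf6 and Ccr6. Median depth was 5273.5 UMIs at a sum of 0 and 6374.5 at 6 or more, and its part in these levels was not tested.

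**Figure D4:**
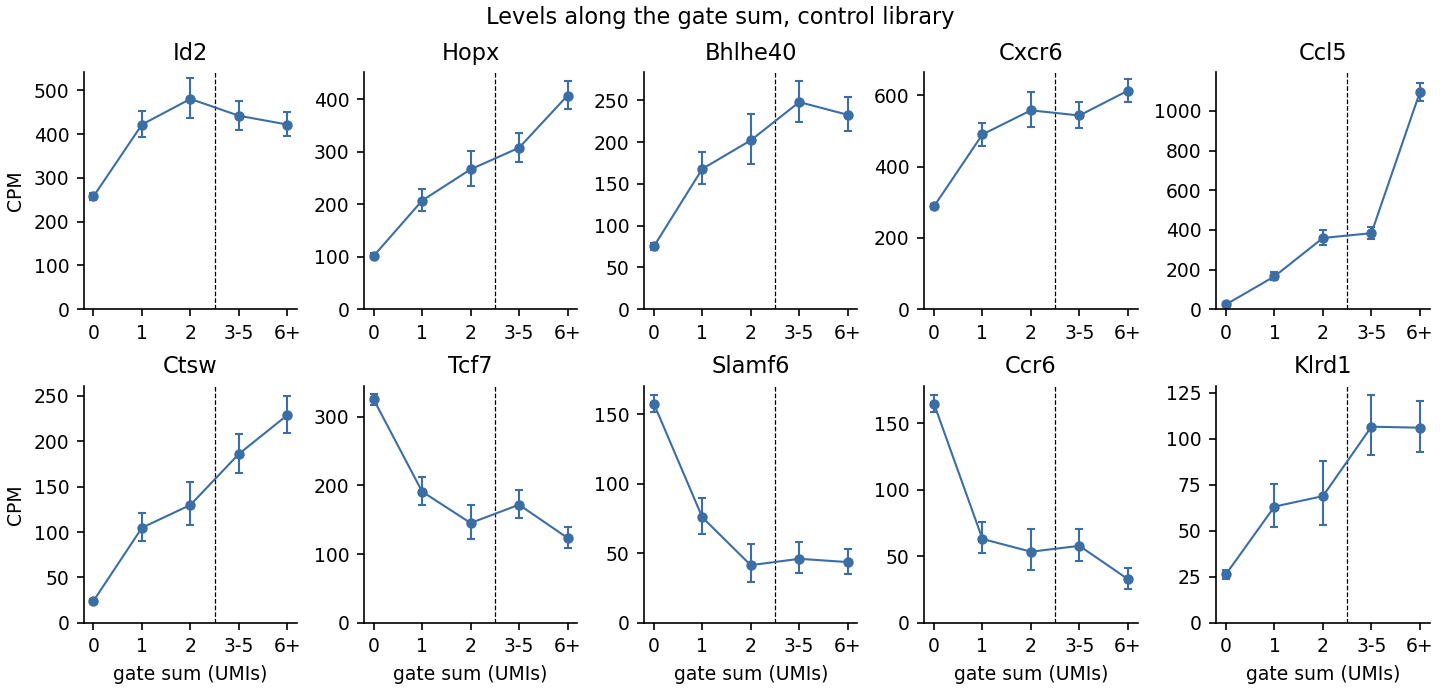
Level of 10 genes (vertical axis, CPM) in control cells by gate sum (horizontal axis, UMIs of Ifng, Tbx21 and Nkg7), with exact Poisson 95% intervals as bars and a dashed line at the threshold for members. Id2 stays between 422 and 480 CPM from a sum of 1 on, whereas Ccl5 reaches 1094 CPM only at 6 or more.

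Among themselves, the members with and without an Ifng UMI differed at few genes. The 175 with Ifng and Nkg7 were compared with the 273 with Nkg7 and no Ifng, at median depths of 5893 and 5756 UMIs, with sides chosen after their counts were seen. Of 4167 genes with at least 100 UMIs over both sets, 0 (0%) were at least 2-fold higher with Ifng and 14 (0.336%) lower, among them neutrophil genes from the 1 member named above. Tbx21 UMIs were present in 24.6% and 24.9%, but Tbx21 is a gate gene, so the gate itself shapes these 2 shares. Cxcr6 stood at 660 and 553 CPM, Ccl5 at 994 and 748 and Id2 at 460 and 417 CPM. The genes with the highest lower bounds on the Ifng side were Odc1, the enzyme that starts polyamine synthesis (66.0 against 34.9 CPM), Hif1a, the hypoxia factor (330 against 220 CPM), Ckb, a creatine kinase (181 against 116 CPM), Ahsa2, 2210016F16Rik and Gm12840. On the side without Ifng were the heat shock genes Hspa1a (120 against 59.7 CPM) and Hspa1b (186 against 125 CPM), near-identical copies, with Ifitm2 (362 against 207 CPM), Ifitm3, Cript and Ighm.

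The 24 members with Ifng and no Nkg7 differed from both. Their Ccl5 was at 90.8 CPM (57.5 to 136), Hopx at 181 CPM, Ly6c2 at 15.8 CPM and Anxa1 at 39.5 CPM, all under the other 2 sets. Tmem176a was at 833 CPM and Ccr6 at 86.8 CPM, above them, and Il17a at 19.7 CPM (6.41 to 46.0), from 3 cells. Ctsw, at 134 CPM, and Id2, at 375 CPM, were above the reference as in the other members. With 24 cells and sides set by the gate genes, this is a description only.

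Receptor variable genes were read in 175 members and 1039 reference cells that held any Trbv UMI. Trbv20 was the most frequent in the members, in 17.7% (12.4% to 24.2%) of them and 10.3% (8.52% to 12.3%) of the reference. Trbv2 was in 9.71% (5.76% to 15.1%) and 16.3% (14.1% to 18.7%), and Trbv1 in 12.0% and 11.9%. Cells of 1 clone share a receptor, so these shares are not over independent cells, and clones cannot be told from 3′ reads.

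The Th1-like cells were mainly in the control library. They made up 472 of 3626 gated control cells, 13.02% (11.9% to 14.2%), and 11 of 1647 gated Id2-deficient cells, 0.668% (0.334% to 1.19%), a 19.5-fold difference (10.8 to 39.3). Thinned to 2000 UMIs per cell, the gate found 209 of 3951 (5.29%, 4.61% to 6.03%) and 5 of 1688 (0.296%, 0.0962% to 0.690%), with 60 and 27 shallower cells left out. All gates were applied to the thinned counts. Cells excluded at full depth for Cx3cr1, S1pr5, Klrg1, Trdc, Cd8a or Cd8b1 UMIs could therefore enter, and these gated cells are not the same set. Over gated cells, Nkg7 was at 126 CPM in the control and 6.64 CPM in the Id2-deficient library, Ifng at 29.3 and 3.19 CPM and Tbx21 at 9.73 and 2.27 CPM. Nkg7 UMIs were in 706 control cells (19.5%) and 12 Id2-deficient cells (0.729%), and in 2 of 38 and 0 of 33 B cells. The size of the difference depended on the gate: with Ifng and Tbx21 alone and a threshold of 2 UMIs in place of 3, the shares were 5.07% and 0.668%. Between the libraries the mt- share of the median gated cell also differed, at 1.77% and 4.25%, and with at most 5% mt- UMIs the member shares were 13.1% and 0.927%.

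Id2 itself was asked in the members as a check of the labels. In the Id2-deficient library the reference cells held 95 Id2 UMIs, 8.34 CPM, in 2.07% of cells, whereas the 11 members held 29 UMIs, 222 CPM (149 to 319), in 5 cells, and 120 CPM (67.3 to 198) without the 1 cell that held 14 of them. For these 5 cells the transcript goes against the label, as far as a 3′ library can tell, since the floxed exons are not given in the sources used here. Of 41 gated Id2-deficient cells with an Id2 UMI 5 were members (12.2%, 4.08% to 26.2%), and of 15 with 3 or more UMIs 4 were (26.7%, 7.79% to 55.1%). Of 1606 cells without an Id2 UMI 6 were members (0.374%, 0.137% to 0.811%). The cells with an Id2 UMI were deeper, at a median of 7246 UMIs, and 8655 with 3 or more, against 6192 without. In the control library the shares were 412 of 2258 (18.2%, 16.7% to 19.9%) with an Id2 UMI and 60 of 1368 (4.39%, 3.36% to 5.61%) without, where the cells with one were deeper (median 5818 against 4636.5 UMIs). The part of incomplete deletion in the 11 cells was not tested.

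The 11 Id2-deficient members were a mixed set. Their gate sums ran from 4 to 22, and cells 1, 4, 5, 8 and 10, numbered by falling gate sum, held 5, 3, 5, 2 and 14 Id2 UMIs. Cells 2, 6 and 10 held 4, 10 and 1 UMIs of Zbtb16, the factor of NKT and other innate-like T cells, and 11, 12 and 3 UMIs of constant genes of the γ receptor chain, and cell 3 held 8 UMIs of the γδ list. Cell 2 alone gave all 43 Klrd1 UMIs. No cell held Ncr1, Cd79a or S100a8 UMIs, 7 held a Cd4 UMI and 1 an Il17a UMI. Of the 10 NK cell markers, however, 6 had UMIs in these members, with 9 UMIs in cell 2 and 6 in cell 1. The NK list summed to 176 CPM in these members, 123 CPM without cell 2, and 132 CPM in their reference. The γδ list summed to 276 CPM in these members and 95.8 CPM in their reference, the NKT and MAIT list to 199 and 43.8 CPM, and in the control both were below the reference. Of the 5 cells with Id2 UMIs, only cell 10 held UMIs of these 2 lists.

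Other genes were set beside the control. Ctsw was at 222 CPM (149 to 319) in the 11 cells and 5.88 CPM in their reference, against 211 and 24.2 CPM in the control. Of its 29 UMIs in the 11 cells, cells 2, 3, 6 and 10, named above for innate-like or γδ markers, held 8, 5, 3 and 6. Cell 5 held 5. Without cell 2 Ctsw stood at 184 CPM (114 to 281) in the members. Il18rap was at 115 CPM in the 11 cells and 8.87 CPM in their reference, and Cxcr3 at 245 and 69.2 CPM. Without the member that held the most of each gene, the members stood at 81.8 CPM for Il18rap and 165 CPM for Cxcr3. Hopx, at 153 CPM (93.5 to 236), Bhlhe40, at 115 CPM (64.2 to 189), and Cxcr6, at 268 CPM (187 to 373), were above their own reference (41.1, 23.0 and 98.8 CPM) and below the control members. Without the top member of each gene they stood at 151, 94.6 and 180 CPM, where cell 3 had held 13 of the 35 Cxcr6 UMIs. Ccl5 had 0 UMIs in all 11, which allows up to 23.0 CPM with a floor of 3 counts, against 796 CPM in control members, of which 165 of 472 held any. Tcf7, at 268 CPM, and Slamf6, at 253 CPM, were below their reference (498 and 341 CPM), but cell 6 held 21 UMIs of each, and without it they stood at 148 CPM (80.9 to 248) and 127 CPM (65.5 to 222), beside 144 and 44.7 CPM in the control members. Id3 was at 199 CPM, and at 159 CPM (88.8 to 262) without cell 6, beside 226 CPM in the reference and 13.6 CPM in control members. The plot of the 4 groups shows these levels with their intervals, which are wide with 130668 UMIs in all 11 cells.

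**Figure D5:**
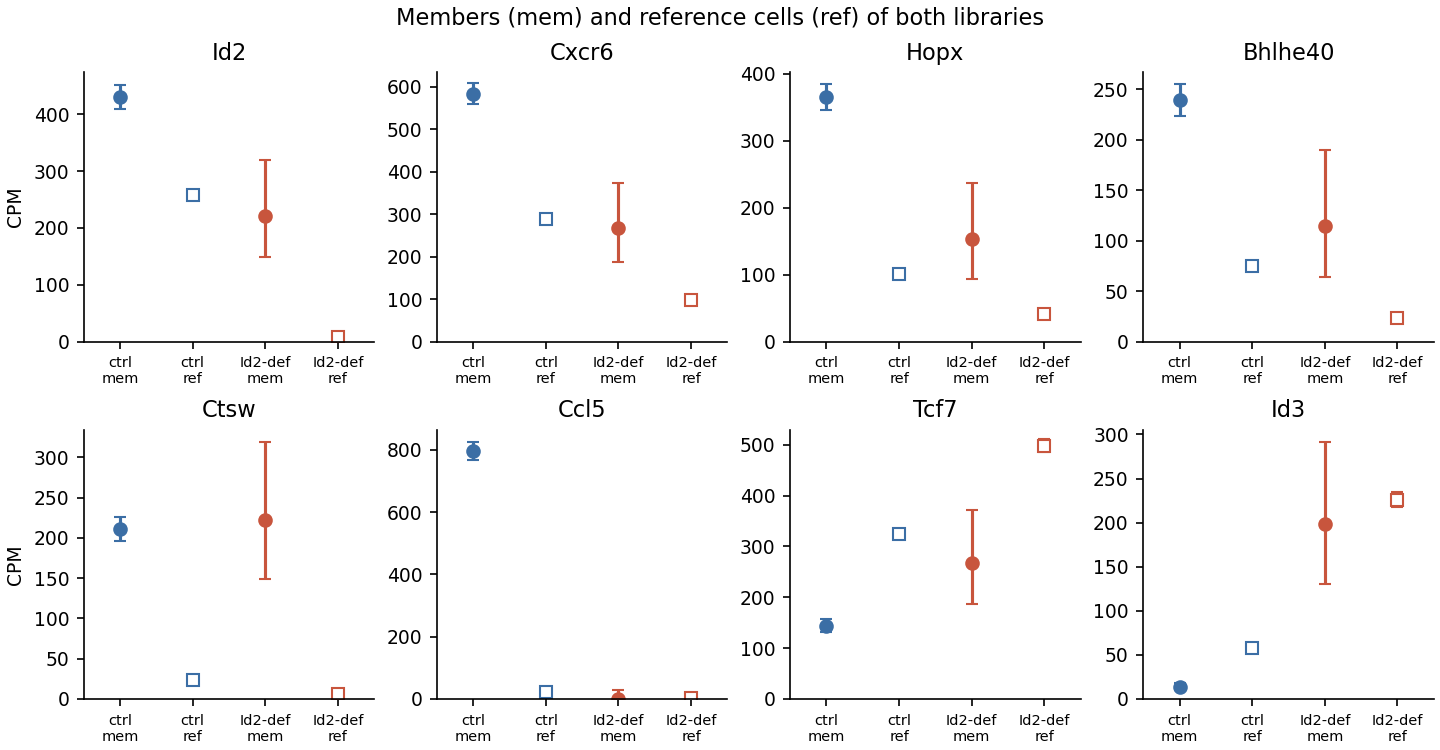
Level of 8 genes (vertical axis, CPM) in control (ctrl) and Id2-deficient (Id2-def) members (mem, filled circles) and reference cells (ref, open squares), with exact Poisson 95% intervals as bars. In control and Id2-deficient members Ctsw is at 211 and 222 CPM, Ccl5 at 796 and 0 CPM and Id3 at 13.6 and 199 CPM. Single cells held 8 of the 29 Ctsw UMIs and 11 of the 26 Id3 UMIs of the Id2-deficient members.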

How the data were processed

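Single-cell RNA was read by 3′ droplet sequencing in 2 libraries, 1 per genotype. The deposited files hold UMI counts per gene and barcode, made by the authors with Cell Ranger 5.0.1 per the file headers and with version 1.3 per the submitters' processing notes, which name build mm10. Barcodes with at least 200 genes and at most 10% mt- UMIs were kept. Counts were summed over members or reference cells, scaled to CPM over 32285 genes, and compared as log2 ratios with exact conditional binomial 95% intervals. CPM intervals are exact Poisson and shares have Clopper-Pearson intervals. All cover counting error only, and the floor for a count of 0 is 3 counts. A gene counted as measured at 100 UMIs over both groups and was called at 2-fold. Some shares were read after thinning to 2000 UMIs per cell, which is then stated. The other shares are at full depth, where the median control member was deeper than the median reference cell. B cells, used for background, were gated by their own markers. Some members of the lists are counted in them but not reported here by name. Doublets were not removed, and an alternative left out the 4% of cells with the highest Scrublet scores in each library.

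The members, the gate and the 19 gene lists and 13 marker lists were chosen with earlier results of these data known. Named genes were Id2, the gate genes and given markers, the 12 highest and 12 lowest genes by the bound of the ratio nearest 0 (without genes that had 20% of the members' UMIs or more in 1 cell), and from each list its highest, lowest and 2 most abundant measured genes. For the split of members the rule took the 6 genes at each end. Other list members are named as examples of their list and were chosen after their values were seen. The computations were tested on simulated counts. Python 3.11.15, numpy 2.4.6, scipy 1.17.1, pandas 2.3.3 and scanpy 1.11.5 were used, and coordinates came from GENCODE M 21.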

Additional observations from a re-analysis of the deposited data

How the results depend on the processing

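No paired analysis was possible because each genotype had 1 library and the result comes from no test across samples. The share of members in the control library was 13.02% as reported, 16.5% with a gate sum of 2 or more, 8.44% with 5 or more, 14.4% with a Cd4 UMI required and 5.07% with a gate on Ifng and Tbx21 alone, an alternative chosen after seeing the data. In the Id2-deficient library it lay between 0.547% and 1.03%. Thinned to 1000 UMIs the control share was 2.24% and the Id2-deficient share 0.0605%, and at 3000 UMIs the control share was 8.23%, so shares at different depths are not comparable. The 189 genes at least 2-fold higher and 248 lower became 109 and 155 with a Cd4 UMI required, 95 and 102 at 300 UMIs, 396 and 734 at 20 UMIs, and 478 and 695 at 1.5-fold. The higher genes numbered 115 with the reference weighted to the members' depth and 108 without cycling cells (added after seeing the data), and the lower genes 404 as a mean of single-cell CPM. Of the 47 named genes past 2-fold, 20 moved by over 1.5 times as a mean of single-cell CPM (Ccl5 to 5.83, Slamf7 to 4.95, Ly6c2 to 4.54, Cxcr5 to −5.03, Id3 to −2.74) and 9 with a reference sum of 0 to 2 (Slamf7 to 3.38, Ctsw to 2.53, Fcgr2b to 2.42). None changed sign in any alternative that gave a value, but Ifngr1 (0.87 with a reference sum of 0 to 2), Ighm (−0.96 with a Cd4 UMI), Ifngr2, Anxa1 (0.87 without its top member) and Cdk1 (0.58 at weighted depth) were under 2-fold in at least 1 alternative. Of the list medians, 202 lay within 1.5-fold of the reported value and 6 did not. With 1 library per genotype, no value separates genotype from library, and genes under 100 UMIs could not be read.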
